A study of Rattus norvegicus with 144 samples.

Results

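ENSRNOT00000048926 and ENSRNOT00000059926 are 2 rat transcripts whose RNA was lower in the brain of saline-treated HIV-1Tg rats than in saline-treated F344 rats in all 3 regions measured, the prefrontal cortex, hippocampus, and striatum. They were chosen for that pattern by the FPKM of the saline rats of both strains, with the spread taken from all rats of a region. Of 12762 annotated transcripts that could be compared in every region, they were the 2 that were past an adjusted p of 0.05 in the PFC, HIP, and STR alike, and they stand among 38803 annotated transcripts listed in all 3 regions. They belong to the reference genes ENSRNOG00000039307 and ENSRNOG00000004616. The deposited tables pair no gene symbol or position with these identifiers, so the transcripts are described here by identifier, and their function is not given.

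The RNA came from adult male rats of the HIV-1Tg strain, which carries a transgene, and of its background control strain, F344, which does not. In each strain 12 rats received nicotine (HIV_Nic and F344_Nic) and 12 received saline (HIV_Sal and F344_Sal), as 1 ml/kg under the skin, 2 times per day for 17 days, with nicotine at 0.25 mg/ml. The punches, taken from the dorsal striatum (STR), the prefrontal cortex (PFC), and the dorsal hippocampus (HIP), gave 144 samples in 12 groups of 12. Behavior had been measured in these rats before the tissue was taken. The transgene of the HIV-1Tg rat is a non-infectious HIV-1 provirus, so the strain models long exposure to viral products and not infection. Strain and transgene go together in these groups, so the transgene and any other inherited difference between the strains cannot be told apart.

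A gene can give several transcripts, or isoforms, that differ in the exons they keep. Cufflinks assembles sequenced fragments into transcript fragments, called transfrags, and estimates the abundance of each one as FPKM, a count of fragments scaled to the length of the transcript and to the number of mapped fragments in the library. Each transfrag is then compared with the annotation. Class code = marks a match to the full intron chain of a reference transcript, and class j marks a transfrag that shares at least one splice junction with it. Class e marks a single-exon transfrag over a reference exon and part of an intron, class i one that lies within an intron, and class p one that lies close to the gene without overlapping it. A lower FPKM of one isoform can thus go with a lower output of the whole gene, or with a different division of its fragments among isoforms. In punches of whole tissue, fewer cells of a type and less RNA per cell cannot be told apart.

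Read totals were not used here, and the ratio of base coverage to FPKM, a relative measure of depth, ranged from 1.64 to 3.56 over the 144 samples. The labelled tissues were not checked against marker genes, because no symbols are paired with the transcripts. Each nicotine library was correlated with the other nicotine libraries of its region, and saline libraries were not screened in this way. HIV_Nic rats 10 and 11 in the PFC stood apart (median r of 0.642 and 0.722, against 0.775 for the median library). So did HIV_Nic rat 4 in the HIP (0.742, against 0.787). The limma fits of each transcript and locus within these regions are also given without them.

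ENSRNOT00000048926 was lower in HIV-1Tg rats in every region, whether they received saline or nicotine. The HIV-1Tg mean was 46.3%, 47.3%, and 42.1% of the F344 mean with saline in the PFC, HIP, and STR, and 52.7%, 55.4%, and 49.8% with nicotine. The saline values chose the transcript and are a description. The strain difference in nicotine rats was not used in the choice. Their spread entered the adjusted p of the choice, which came from fits of all 48 samples of a region. In nicotine rats the difference passed the adjusted threshold in all 3 regions.

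In the PFC of saline rats, the FPKM of ENSRNOT00000048926 ranged from 9.04 to 15.4 with a median of 12.7 in F344_Sal, and from 4.46 to 6.94 with a median of 6.05 in HIV_Sal. In the HIP the ranges were 9.96 to 18.4 (median 12.8) in F344_Sal and 4.30 to 8.05 (median 6.60) in HIV_Sal. In the STR they were 13.6 to 18.1 (median 15.9) and 4.78 to 8.80 (median 6.91). Every HIV_Sal rat was thus below every F344_Sal rat in each region. Such a separation was found for 0.0203%, 0.0134%, and 0.0199% of the transcripts compared in the PFC, HIP, and STR, from which nothing is read because these rats chose the transcript. The difference of mean log2 values was -1.10, -1.07, and -1.26.

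Among nicotine rats in the PFC, the FPKM of ENSRNOT00000048926 ranged from 8.33 to 13.9 with a median of 10.8 in F344_Nic, and from 3.22 to 9.45 with a median of 4.996 in HIV_Nic. The means were 10.6 ± 1.69 and 5.60 ± 1.94 (SD, n = 12). The groups overlapped only through HIV_Nic rats 10 and 11, at 9.45 and 9.43, the libraries that stood apart, whereas the other 10 HIV_Nic rats lay between 3.22 and 5.89. The difference was -0.96 on the log2(FPKM + 0.1) scale (SE 0.16, 95% interval -1.29 to -0.64, limma, adjusted p = 2.2e-04), a 1.95-fold lower level. Without these 2 libraries it was -1.13 (SE 0.11, limma, adjusted p = 1.2e-05). Lower calls were made for 0.602% of the 14444 transcripts tested in the PFC, and calls in either direction for 4.25%.

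In the HIP of nicotine rats the FPKM ranged from 11.6 to 16.3 with a median of 12.8 in F344_Nic, and from 5.71 to 10.8 with a median of 7.06 in HIV_Nic, with means of 13.2 ± 1.48 and 7.34 ± 1.22 (SD, n = 12). The groups did not overlap, which was the case with HIV_Nic lower for 0.02% of the transcripts tested. The highest HIV_Nic value was that of rat 4, and the other 11 rats did not exceed 7.94. The difference was -0.85 on the log2 scale (SE 0.086, 95% interval -1.03 to -0.67, limma, adjusted p = 1.2e-05), a 1.80-fold lower level. Lower calls were made for 0.0134% of the 14969 transcripts tested, and ENSRNOT00000048926 had the smallest p of them. Without rat 4 the difference was -0.90 (limma, adjusted p = 1.3e-07).

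In the STR of nicotine rats the FPKM ranged from 11.2 to 16.9 with a median of 14.9 in F344_Nic, and from 5.42 to 7.93 with a median of 7.11 in HIV_Nic, with means of 14.3 ± 2.02 and 7.13 ± 0.726 (SD, n = 12). Every HIV_Nic rat was below every F344_Nic rat, as for 0.0136% of the transcripts tested. The difference was -0.99 on the log2 scale (SE 0.086, 95% interval -1.17 to -0.81, limma, adjusted p = 4.6e-07), a 1.99-fold lower level. It was the 1 lower call among 14757 transcripts tested, or 0.00678%. ENSRNOT00000048926 was also the 1 transcript lower past the adjusted threshold in all 3 regions of nicotine rats. In a two-sided permutation test of this transcript alone with 100000 resamples, p was 2e-05 in each region, the smallest value that test could give.

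**Figure D1:**
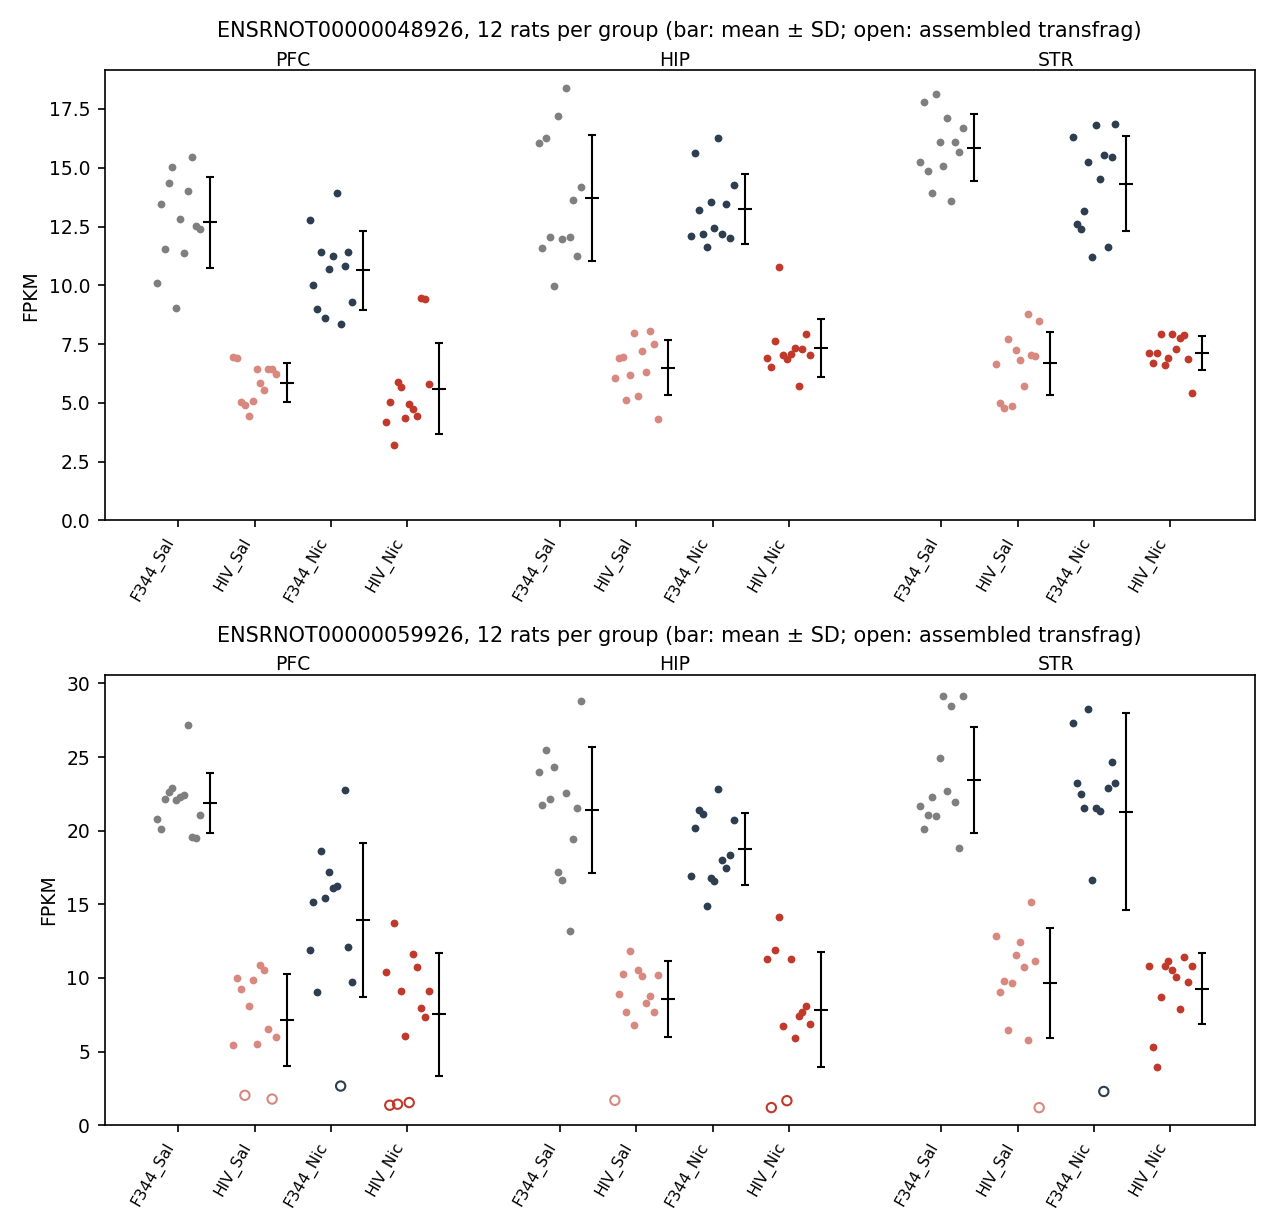
FPKM of ENSRNOT00000048926 (top) and ENSRNOT00000059926 (bottom) in each sample of the 12 groups, with the mean and SD of 12 rats, where open points mark samples whose value belongs to an assembled transfrag longer than the reference. The HIV-1Tg groups lie below the F344 groups of the same region and drug, with overlap for ENSRNOT00000048926 only in nicotine rats of the PFC and for ENSRNOT00000059926 in nicotine rats of the PFC and STR.

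Over the 12 groups, the mean FPKM of ENSRNOT00000048926 ran from 5.60 in HIV_Nic of the PFC to 15.9 in F344_Sal of the STR. The 6 HIV-1Tg groups were the 6 lowest, from 5.60 to 7.34, and each step between neighbours in that order was smaller than the SD of either group. The lowest F344 group was F344_Nic of the PFC at 10.6, and the step to it exceeded both SDs. Among the F344 groups, the order was PFC, HIP, and STR within each drug. The step from F344_Nic to F344_Sal in the PFC exceeded the SD of both groups, the last step, between F344_Nic and F344_Sal in the STR, exceeded the SD of F344_Sal alone, and the others were smaller than either SD. In the nicotine rats of each region, 68.1% to 74.3% of the transcripts tested had a lower mean FPKM.

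The reference gene of ENSRNOT00000048926, ENSRNOG00000039307, had 2 rows in the table of each region. One was the transcript itself, at 780 bases in all 144 samples, and the other was a class e transfrag of 763 to 1032 bases, likewise with a value in all 144 samples. No second annotated isoform was listed. The class e row therefore gave another estimate at the same locus that was not itself used in the choice. The 2 rows are not independent, since Cufflinks divides fragments among overlapping transfrags, so they describe a single locus and not separate findings.

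The class e row was lower in HIV-1Tg rats too. In F344_Nic and HIV_Nic its mean FPKM was 10.6 ± 1.79 and 5.72 ± 0.873 for the PFC, 11.9 ± 2.10 and 6.52 ± 0.782 in the HIP, and 12.0 ± 1.29 and 5.32 ± 1.02 in the STR (SD, n = 12). The lowest F344_Nic rat was above the highest HIV_Nic rat in each region, at 7.19 against 7.11 for the PFC, 9.37 against 8.09 for the HIP, and 10.1 against 6.44 in the STR. The groups were thus apart in all regions, narrowly so in the PFC. The differences on the log2(FPKM + 0.1) scale were -0.88 (SE 0.10), -0.84 (SE 0.086), and -1.18 (SE 0.10). In a two-sided permutation test with 100000 resamples, added after the data were seen, p was 2e-05 in each region, the smallest value it could give, and 2e-05 after adjustment over the 3 regions.

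In saline rats the class e row averaged 9.52 ± 2.49 in F344_Sal and 4.93 ± 0.886 in HIV_Sal of the PFC, 12.7 ± 1.65 and 6.37 ± 1.10 in the HIP, and 12.4 ± 2.35 and 6.43 ± 0.912 in the STR (SD, n = 12). The saline groups overlapped in the PFC (lowest F344_Sal 6.45, highest HIV_Sal 6.80) and the HIP (8.55 and 8.82), and not in the STR (9.53 and 8.32). HIV_Nic rats 10 and 11 of the PFC, which were high for ENSRNOT00000048926, had class e values of 5.98 and 6.14, within the 3.63 to 7.11 of the other 10 rats.

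**Figure D2:**
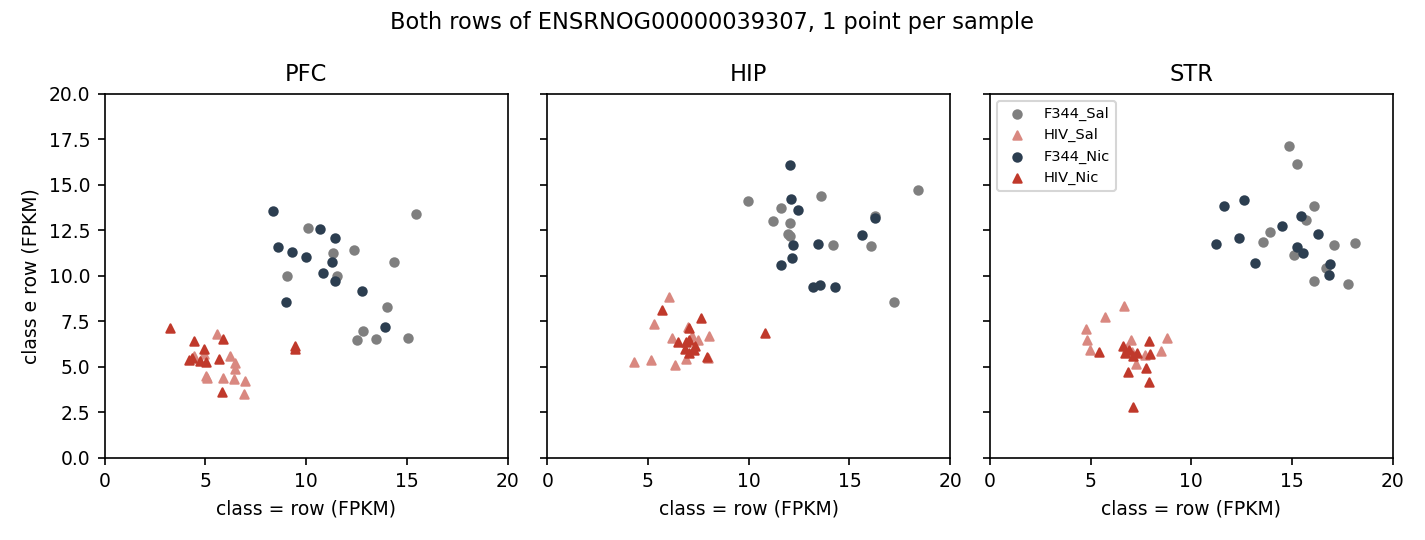
FPKM of the class e row (vertical axis) against FPKM of ENSRNOT00000048926 (horizontal axis) in each sample, with a panel for each region and a colour for each group. F344 samples lie toward the upper right and HIV-1Tg samples toward the lower left in each region, and 2 HIV_Nic samples of the PFC lie to the right of their group at 9.45 and 9.43 on the horizontal axis.

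The share of both rows that ENSRNOT00000048926 took did not pass the test between strains. In F344_Nic and HIV_Nic it was 50.02% ± 7.31 and 48.6% ± 9.02 for the PFC, 52.9% ± 5.36 and 52.8% ± 5.03 in the HIP, and 54.2% ± 5.35 and 57.5% ± 6.34 in the STR (SD, n = 12). The differences were -1.39, -0.08, and 3.33 percentage points, with permutation p adjusted over the shares of 0.948, 0.98, and 0.948.

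The FPKM of each row multiplied by its length in kilobases gives FPM, the approximate number of fragments assigned to the locus scaled to the library, a quantity that can be added over transfrags of unequal length. Over both rows FPM averaged 17.9 in F344_Sal, 8.66 in HIV_Sal, 17.2 in F344_Nic, and 9.01 in HIV_Nic of the PFC. The same groups averaged 21.3, 10.3, 20.3, and 11.1 in the HIP, and 22.7, 10.5, 21.2, and 10.02 in the STR. No F344 rat overlapped with any HIV-1Tg rat of the same drug in any of the regions. Among all loci in FPM this was so with HIV-1Tg lower for 0.0296%, 0.0412%, and 0.041% in nicotine rats of the PFC, HIP, and STR, and for 0.0292%, 0.0354%, and 0.0465% in saline rats, whose values chose the transcript and are a description. In nicotine rats the differences for the PFC, HIP, and STR were -0.95 (SE 0.090), -0.86 (SE 0.062), and -1.08 (SE 0.056) on the log2 scale, with adjusted p of 4.1e-06, 1.2e-08, and 6.2e-12 (limma). Of all loci tested in this unit, which was chosen after the data were seen, 0.687%, 0.0412%, and 0.0468% were called lower. The PFC rats 10 and 11 were the highest of HIV_Nic at 12.3 and 12.4, against 7.54 to 9.97 in the others, and rat 4 was the highest in the HIP at 14.1, against 10.3 to 12.3. Without them the PFC difference was -1.04 (SE 0.060, limma, adjusted p = 6.4e-10) and the HIP difference -0.89 (SE 0.054, limma, adjusted p = 8.9e-10).

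ENSRNOT00000059926 was also lower on average in HIV-1Tg rats with nicotine, in all 3 regions, but its values spread more widely and it did not pass the adjusted threshold in any region. The HIV-1Tg mean was 32.7%, 40.0%, and 41.2% of the F344 mean with saline in the PFC, HIP, and STR, and 54.2%, 41.8%, and 43.5% with nicotine. Part of its spread lay in a few samples where the value belonged to a longer assembled transfrag, as described next.

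In 133 of the 144 samples the row held a transcript of 1195 to 1383 bases at 3.92 to 29.2 FPKM, where 1195 bases is the reference length. In the other 11 it held a transfrag of 2721 to 2798 bases at 1.198 to 2.66 FPKM. These were 2 F344 samples, F344_Nic rat 9 in the PFC and in the STR, and 9 HIV-1Tg samples. The HIV-1Tg samples were HIV_Nic rats 2, 4, and 7 and HIV_Sal rats 4 and 11 in the PFC, HIV_Nic rats 2 and 6 and HIV_Sal rat 1 in the HIP, and HIV_Sal rat 12 in the STR. All 11 were the lowest values of the transcript in the study. Because the number of such samples differed between the strains, the levels of the transcript and its strain difference in nicotine rats are also given without them, an alternative added after the data were seen. Without them the HIV-1Tg mean was 37.5%, 42.9%, and 44.4% of the F344 mean with saline in the PFC, HIP, and STR, and 64.1%, 48.7%, and 40.3% with nicotine. The locus sums and shares below include these samples. Over all annotated transcripts, assembled transfrags made up 5.65% to 6.81% of the entries in a library, with missing and undetected ones counted. The share among detected transcripts was not taken.

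In the PFC of saline rats, the FPKM of ENSRNOT00000059926 ranged from 19.5 to 27.2 with a median of 22.1 in F344_Sal, and from 1.78 to 10.9 with a median of 7.32 in HIV_Sal. The ranges were 13.2 to 28.8 (median 21.9) and 1.69 to 11.8 (median 8.84) in the HIP. They were 18.9 to 29.2 (median 22.1) and 1.198 to 15.1 (median 10.2) in the STR. The saline groups did not overlap in any region, with or without the assembled transfrags. Without them such a separation was found for 0.0166%, 0.0163%, and 0.0242% of transcripts, from which again nothing is read. The differences with all samples on the log2 scale were -1.78, -1.40, and -1.44. The largest adjusted p of the 3 regions in the saline comparison, which chose the transcript, was 0.030 for ENSRNOT00000059926 and 6.0e-07 for ENSRNOT00000048926. The nearest transcript outside the choice, ENSRNOT00000007811, had saline differences of -0.99, -1.06, and -0.95 and a largest adjusted p of 0.119.

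Among nicotine rats in the PFC, the FPKM of ENSRNOT00000059926 ranged from 2.66 to 22.8 with a median of 15.3 in F344_Nic, and from 1.36 to 13.7 with a median of 8.55 in HIV_Nic. The means were 13.9 ± 5.23 and 7.54 ± 4.18 (SD, n = 12), and the groups overlapped widely, whereas 0.0138% of transcripts separated with HIV_Nic lower. The difference was -1.08 on the log2 scale (SE 0.41, 95% interval -1.92 to -0.24), with an unadjusted limma p of 0.014 and an adjusted p of 0.213. Without the assembled transfrags the means were 14.9 ± 4.03 (SD, n = 11) and 9.58 ± 2.33 (SD, n = 9), and 6 HIV_Nic rats still lay at or above the lowest F344_Nic rat, whereas 0.0255% of transcripts separated. The difference was then -0.63 (SE 0.18, limma, adjusted p = 0.040), where 0.724% of transcripts were called lower. HIV_Nic rats 10 and 11 were at 7.97 and 7.36, inside the range of their group, and without them the difference was -1.15 (SE 0.44, limma, adjusted p = 0.209).

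In the HIP of nicotine rats the FPKM ranged from 14.9 to 22.9 with a median of 18.2 in F344_Nic, and from 1.201 to 14.1 with a median of 7.54 in HIV_Nic, with means of 18.8 ± 2.42 and 7.85 ± 3.91 (SD, n = 12). The groups did not overlap, as for 0.02% of the transcripts tested, or 0.0244% without assembled transfrags. The difference was -1.50 (SE 0.30, 95% interval -2.13 to -0.87), with an unadjusted limma p of 5.2e-05 and an adjusted p of 0.154. Without the assembled transfrags HIV_Nic averaged 9.13 ± 2.78 (SD, n = 10), and the difference was -1.08 (SE 0.14, limma, adjusted p = 3.2e-04), with 0.0244% of transcripts called lower. The highest HIV_Nic value, 14.1, was that of rat 4, the library that stood apart, and the other 11 rats lay between 1.201 and 11.9. Without rat 4 the difference was -1.60 (SE 0.30, limma, adjusted p = 0.111).

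In the STR of nicotine rats the FPKM ranged from 2.30 to 28.3 with a median of 22.7 in F344_Nic, and from 3.92 to 11.4 with a median of 10.3 in HIV_Nic, with means of 21.3 ± 6.68 and 9.27 ± 2.42 (SD, n = 12). F344_Nic rat 9, at 2.30, was the 1 F344 rat within the HIV_Nic range or below it. The difference was -1.08 (SE 0.30, 95% interval -1.70 to -0.46), with an unadjusted limma p of 0.0015 and an adjusted p of 0.530. Without that sample, the 1 assembled transfrag among these rats, F344_Nic ran from 16.6 to 28.3 and did not overlap with HIV_Nic, as for 0.0248% of transcripts under that treatment. The difference was then -1.35 (SE 0.15, limma, adjusted p = 6.0e-05), with 0.0165% of transcripts called lower.

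With all samples, ENSRNOT00000059926 met the study's kind of limit, an unadjusted p under 0.05 with a fold over 1.2, in each region of nicotine rats. That limit was met in the lower direction by 3.48%, 1.67%, and 3.21% of the transcripts tested in the PFC, HIP, and STR. In the two-sided permutation test of this transcript alone with 100000 resamples, the PFC gave p = 0.017, the HIP 2e-05, which is the smallest value possible, and the STR 0.0017. The direction was the same under every alternative run, and the alternatives that passed the adjusted threshold left out assembled or outlying values, or, in the HIP, also took saline rats into the fit or rats 7 to 12 alone.

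By mean FPKM of ENSRNOT00000059926, the 6 HIV-1Tg groups were again the 6 lowest, from 7.16 in HIV_Sal of the PFC to 9.65 in HIV_Sal of the STR, and each step between them was smaller than the SD of either group. The F344 groups ran from 13.9 in F344_Nic of the PFC to 23.4 in F344_Sal of the STR, and the 4 highest differed by steps smaller than the SD of either neighbour. In nicotine rats 74.3% to 81.2% of the transcripts tested had a lower mean FPKM.

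ENSRNOG00000004616, the reference gene of ENSRNOT00000059926, had many more rows, with 16, 15, and 12 in the tables of the PFC, HIP, and STR. Of its annotated isoforms, ENSRNOT00000059926 had a value in all 144 samples. ENSRNOT00000064744 had a value in 30 samples, 10 of F344 and 20 of HIV-1Tg, at 1.35 to 5.06 FPKM, and was listed at 0 in the rest. ENSRNOT00000006591 had a value in 21 samples, 8 of F344 and 13 of HIV-1Tg, at 1.15 to 10.4 FPKM, and was likewise listed at 0 elsewhere. Both were thus detected in few rats of either strain and did not enter the test. In a fit without a filter neither passed the adjusted threshold in any region (limma, adjusted p of 0.986 to 1), and their differences did not share a sign across regions.

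The other rows of ENSRNOG00000004616 were assembled anew and came and went between samples. Class j transfrags had a value in 64 samples, 35 of F344 and 29 of HIV-1Tg, and class e transfrags in 41, 22 of F344 and 19 of HIV-1Tg. Class i transfrags of 110 to 131 bases had a value in 3 samples, all F344 in the PFC. Class p transfrags had a value in 17 samples, all HIV-1Tg. Some short transfrags carried high FPKM, up to 81.8 for class j, 207 for class i, and 336 for class e, so that a sum of FPKM over all rows was set by them in some samples.

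Over class = and class j rows, the locus sum of FPKM was 24.01 in F344_Nic and 12.1 in HIV_Nic of the PFC, 23.5 and 10.6 for the HIP, and 21.8 and 11.6 in the STR. The differences on the log2 scale were -0.99 (SE 0.46), -1.42 (SE 0.34), and -0.75 (SE 0.28), with adjusted p of 0.408, 0.175, and 0.540 (limma). Without HIV_Nic rats 10 and 11 the PFC difference was -1.34 (SE 0.45, limma, adjusted p = 0.096), and without rat 4 the HIP difference was -1.48 (SE 0.35, limma, adjusted p = 0.163). None passed the adjusted threshold, which with all libraries 0.646%, 0.0241%, and 0.0301% of loci passed in the lower direction. For ENSRNOG00000039307 this sum is the transcript itself, and it passed in all 3 regions, as did 2 other loci, ENSRNOG00000004217 and ENSRNOG00000004395.

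In FPM over the rows of ENSRNOG00000004616, the groups F344_Sal, HIV_Sal, F344_Nic, and HIV_Nic averaged 33.6, 12.6, 23.7, and 13.7 for the PFC, 32.8, 13.7, 32.0, and 13.9 in the HIP, and 35.8, 15.1, 30.2, and 14.5 in the STR. With saline, the F344 rats lay above the HIV-1Tg rats without overlap in every region, which is a description, since ENSRNOT00000059926, chosen on these rats, made up 78.1% to 81.4% of this sum on average in the saline groups. Beside it stand the shares of loci given above for FPM. With nicotine they did so in the HIP (lowest F344_Nic 29.9, highest HIV_Nic 21.5), as did 0.0412% of loci, and in the PFC and STR they overlapped. The differences in nicotine rats were -0.89 (SE 0.27), -1.36 (SE 0.23), and -0.97 (SE 0.21), with adjusted p of 0.062, 0.011, and 0.120 (limma). With all libraries the locus was thus past the threshold in this unit in the HIP alone. Without HIV_Nic rats 10 and 11 the PFC difference was -1.09 (SE 0.26, limma, adjusted p = 0.0097), where 1.37% of loci were called lower, and without rat 4 the HIP difference was -1.43 (SE 0.23, limma, adjusted p = 0.0065), where 0.0475% were.

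The 11 samples with a long assembled transfrag had 3.30 to 7.31 FPM over the class =, j, and e rows. Class i and class p rows, and values with no listed length, were not part of that sum. The PFC rats 10 and 11 of HIV_Nic had 25.6 and 22.1 FPM, against 3.95 to 16.4 in the other 10, and HIP rat 4 had 21.5, against 3.30 to 17.7. The libraries that stood apart were thus the highest of their group at both loci. 

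**Figure D3:**
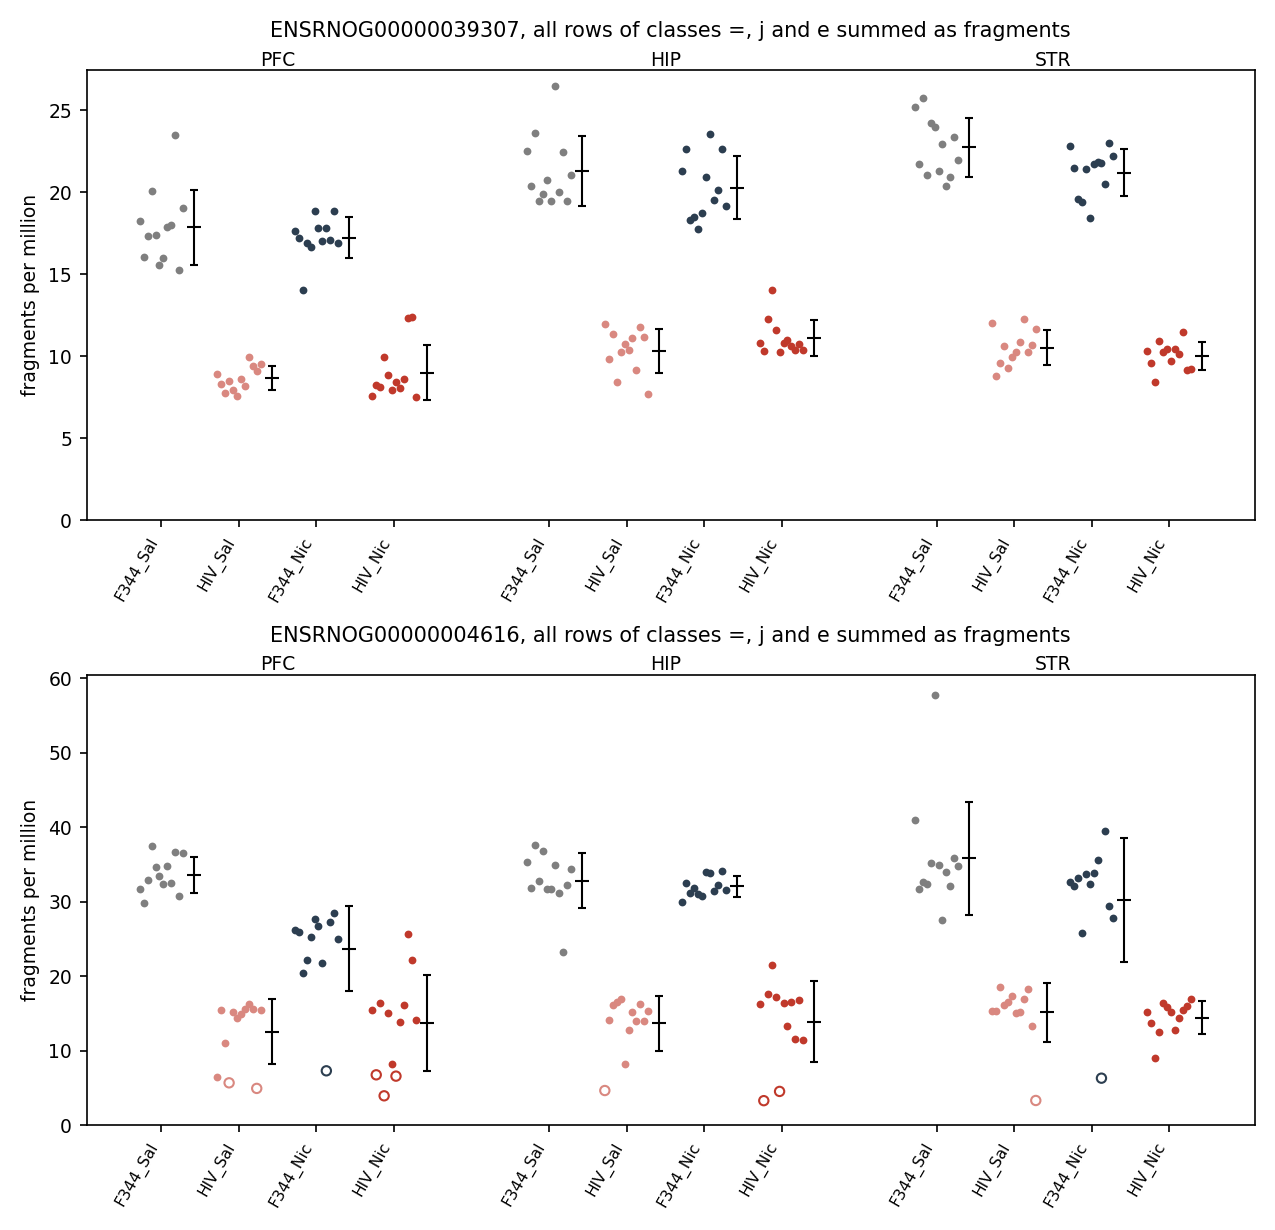
FPM (fragments scaled to the library) assigned to ENSRNOG00000039307 and ENSRNOG00000004616 in each sample, with the mean and SD of the 12 rats of each group, where open points mark samples whose value of ENSRNOT00000059926 belongs to a long assembled transfrag. At ENSRNOG00000039307 the strains do not overlap in any region or drug, and at ENSRNOG00000004616 the open points sit between 3.30 and 7.31.

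The share of the class = and j sum taken by ENSRNOT00000059926 was 76.2% ± 27.3 in F344_Nic and 73.2% ± 31.5 in HIV_Nic of the PFC, and 80.7% ± 13.0 and 78.1% ± 21.6 in the HIP (SD, n = 12). These shares did not pass the test (permutation p adjusted over the shares of 0.80 in both). In the STR it was 97.8% ± 5.22 in F344_Nic and 79.6% ± 17.4 in HIV_Nic (SD, n = 12), 18.2 percentage points lower (permutation test, adjusted p = 0.0022). Over class = rows alone, which are part of that sum, the STR difference was -13.8 points (permutation test, adjusted p = 0.0045), which passed as well. In the STR, ENSRNOT00000064744 and ENSRNOT00000006591 had a value in 0 F344_Nic rats, and in 5 and 3 HIV_Nic rats at 1.23 to 3.31 FPKM. The class = share thus rested on low isoforms listed in some rats alone. Over rows of any class the STR difference was -9.39 points (adjusted p = 0.948), and in FPM it was -12.1 points (adjusted p = 0.36), and these did not pass.

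**Figure D4:**
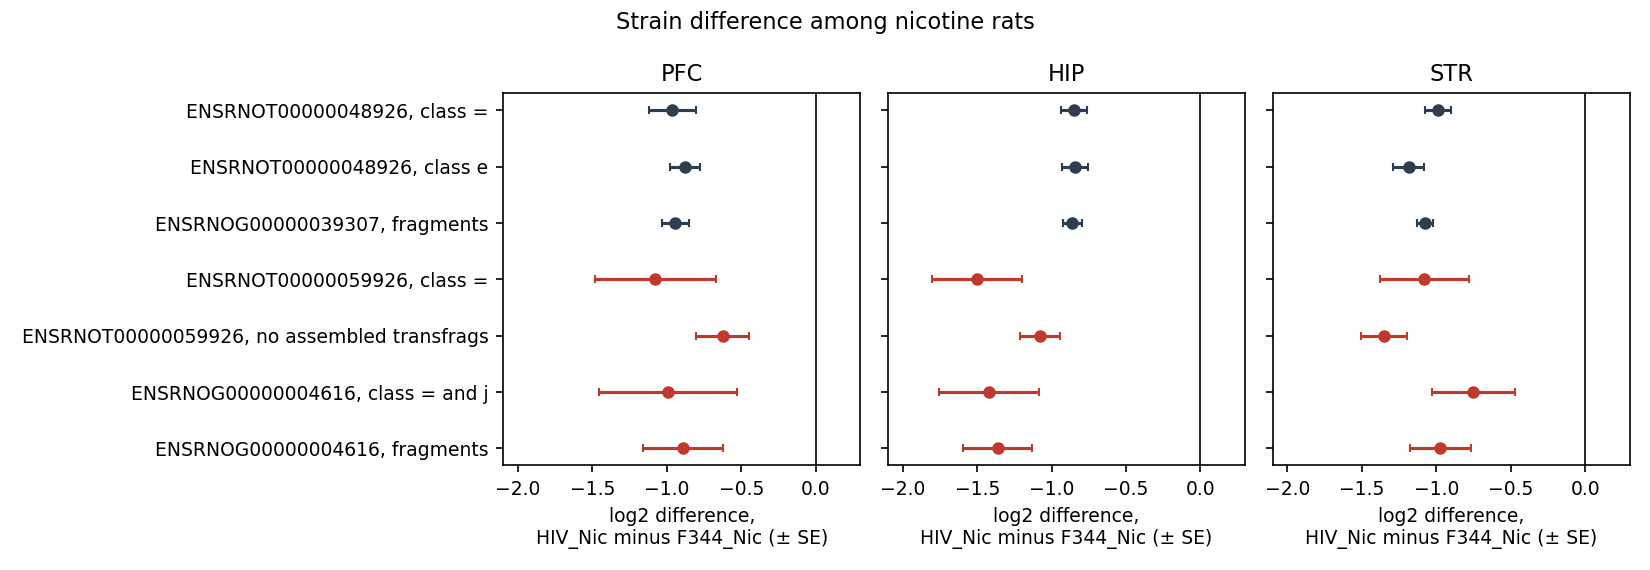
Difference between HIV_Nic and F344_Nic on the log2 scale, with its SE, for the rows and loci of both transcripts in the PFC, HIP, and STR. All values lie below 0, within each region the SEs at ENSRNOG00000039307 are the shorter ones, and those of ENSRNOT00000059926 are from 0.30 to 0.41 with all samples and from 0.14 to 0.18 without the assembled transfrags.

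Whether the strain difference in nicotine rats differed between regions was tested for each transcript. The 72 samples of this fit came from 24 rats, and since the labels do not say whether a replicate number marks the same rat in each region, they entered as separate samples. For ENSRNOT00000048926 the STR minus PFC, HIP minus PFC, and STR minus HIP contrasts were -0.03, 0.11, and -0.14 on the log2 scale, each with an SE of 0.15, and adjusted p of 0.970, 0.875, and 0.930 (limma). For ENSRNOT00000059926 they were 0.00, -0.42, and 0.42, each with an SE of 0.49, and adjusted p of 0.999, 0.849, and 0.930. None passed, where 4.54%, 3.8%, and 0.00799% of transcripts did. Without the assembled transfrags, the STR minus PFC contrast of ENSRNOT00000059926 was -0.73 (SE 0.22, limma, adjusted p = 0.031), where 5.95% of transcripts passed. This treatment of the values was chosen after the data were seen. The HIP minus PFC and STR minus HIP contrasts of ENSRNOT00000059926 were then -0.45 (SE 0.22) and -0.28 (SE 0.22). They did not pass, where 4.97% and 0.0102% of transcripts did. The STR minus HIP contrast thus turned sign from the 0.42 with all samples.

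Nicotine rats were set beside saline rats of the same strain as a description, since the saline rats chose the transcripts. ENSRNOT00000059926 in the PFC of F344 rats showed the widest gap, with means of 21.9 ± 2.06 in F344_Sal and 13.9 ± 5.23 in F344_Nic (SD, n = 12), and 11 of 12 F344_Nic rats were below the lowest F344_Sal rat. Without the assembled transfrag this held for 10 of 11 rats. The corresponding log2 differences in F344 rats were -0.79 (SE 0.34), -0.17 (SE 0.27), and -0.30 (SE 0.29) for the PFC, HIP, and STR. With all samples the F344_Nic mean in the STR was 90.8% of the F344_Sal mean, and without the assembled transfrag 98.2%. In HIV-1Tg rats the log2 differences were -0.09, -0.28, and 0.07. In the PFC of these rats HIV_Sal and HIV_Nic lay at 7.16 ± 3.13 and 7.54 ± 4.18 (SD, n = 12), and without the assembled transfrags at 8.21 ± 2.16 (SD, n = 10) and 9.58 ± 2.33 (SD, n = 9). In the HIP the HIV_Nic mean was 91.6% of the HIV_Sal mean with all samples and 99.3% without them. In the STR it was 96.0%, and without the 1 assembled transfrag, in HIV_Sal, 88.9%, with 2 of 12 HIV_Nic rats below the lowest HIV_Sal rat. Without the assembled transfrags the log2 differences were 0.23, -0.05, and -0.18 in HIV-1Tg rats, so that the sign turned in the PFC and STR, and -0.59, -0.17, and -0.02 in F344 rats.

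For ENSRNOT00000048926 the nicotine minus saline differences in F344 rats were -0.25 (SE 0.13), -0.03 (SE 0.10), and -0.15 (SE 0.092) in the PFC, HIP, and STR, and those in HIV-1Tg rats were -0.12, 0.18, and 0.11. In the PFC 3 and in the STR 5 of 12 F344_Nic rats were below the lowest F344_Sal rat, and in the HIP there were none. Of the HIV_Nic rats in the PFC, 4 were below the lowest and 2 above the highest HIV_Sal rat. The 2 above were rats 10 and 11, the libraries that stood apart, and the other 10 HIV_Nic rats averaged 4.83 ± 0.831 (SD), against 5.86 ± 0.835 (SD, n = 12) in HIV_Sal. In the HIP 1 HIV_Nic rat, rat 4, was above the HIV_Sal range, and in the STR all 12 were within it. With all libraries, the mean of nicotine rats was 83.9% to 113% of that of saline rats over both strains and the 3 regions.

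The annotated transcripts most alike to each of these were taken by Pearson correlation over the 72 nicotine samples after each region's mean was removed, among 11310 transcripts, as a description. Samples share strain, so the correlation includes the strain difference, and the value within groups is given beside it. For ENSRNOT00000048926 the closest were ENSRNOT00000025575 (r = 0.76, 0.09 within groups), ENSRNOT00000007811 (0.65 and 0.16), ENSRNOT00000059926 (0.56 and 0.10), ENSRNOT00000059150 (0.55 and 0.39), and ENSRNOT00000019080 (0.54 and 0.42). The samples with an assembled transfrag are included.

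The levels of these transcripts are a description with no test, since the same samples chose them. The mean FPKM of ENSRNOT00000025575 was 1.38 in F344_Nic and 0.423 in HIV_Nic of the PFC, 1.11 and 0.448 in the HIP, and 1.06 and 0.607 in the STR. ENSRNOT00000007811 averaged 3.82 and 2.05 in the PFC, whereas ENSRNOT00000059150 averaged 5.50 and 5.37 in the HIP. For ENSRNOT00000059926 the closest were ENSRNOT00000048926 (r = 0.56, 0.10 within groups), ENSRNOT00000026844 (0.46 and 0.40), ENSRNOT00000066997 (0.45 and 0.36), ENSRNOT00000007811 (0.43 and 0.05), and ENSRNOT00000025575 (0.42 and -0.21). Of these, ENSRNOT00000026844 averaged 11.4 in F344_Nic and 11.8 in HIV_Nic of the STR, and so was not lower there.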

How the data were processed

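Samples were grouped by strain, drug, and region as the labels give them. Per the labels and the study's methods, libraries were made with the TruSeq kit and sequenced as paired ends, and the authors used TopHat and Bowtie for alignment to Rn4. The authors deposited the FPKM of each Cufflinks transfrag, 1 table for each strain and region, in cells that pack FPKM with its interval, coverage, and length. Tool versions are left out. Per-sample FPKM already includes division by length and by mapped fragments, so read counts and counting errors are not used here, and relative depth is the ratio of coverage to FPKM. The deposited Cufflinks interval spanned a median of 9.16% to 41.7% of the value to either side for both transcripts.

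FPKM of class = rows was tested as log2(FPKM + 0.1) in limma 3.58.1 (R 4.3.3), with a trended prior, in the 24 nicotine rats of a region, with Benjamini-Hochberg adjustment over all transcripts tested. A fold change on this scale understates that of low transcripts. A transcript entered if at least 6 of 12 rats in both groups exceeded 0.01 FPKM, and missing values were left out. Both transcripts passed this filter in every region. Loci were tested as FPKM summed per reference gene, and locus shares by two-sided permutation with 100000 resamples (scipy 1.17.1, Python 3.11.15). The fits were tested on simulated data. FPM was FPKM times length in kilobases, summed over rows of classes =, j, e, o, and c. Values with no listed length could not enter it. At ENSRNOG00000004616 these were 9 class j and 4 class e values, so its FPM may miss fragments in some samples. ENSRNOG00000039307 had no such values.

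The members and lists were chosen with earlier results of these data known, so saline comparisons carry no test. The named transcripts are the 2 chosen, every row of their reference genes, and the 5 transcripts most correlated with each. Neighbouring genes and marker genes were not analysed here, because the reference table pairs no Ensembl identifier with a symbol. Rats of different groups had the same replicate numbers, but same-numbered rats did not deviate together, so no pairing was used. The alternatives are named in the closing section.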

Additional observations from a re-analysis of the deposited data

Results flagged for a closer look

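Class p transfrags, which lie close to a reference gene without overlapping it, were listed for ENSRNOG00000004616 in 17 of 72 HIV-1Tg samples and in 0 of 72 F344 samples. They had 0.979 to 2.10 FPKM where they had a value. By group, they had a value in 3 HIV_Nic and 2 HIV_Sal rats in the PFC, 1 and 5 in the HIP, and 5 and 1 in the STR. These rows entered the sums over rows of any class and no other value above. The difference in their number between the strains was noticed in the data and was not tested.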

How the results depend on the processing

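The settings tried were pseudocounts of 0.01 and 1, a filter at a mean of at least 1 FPKM or none, removal of outliers beyond 1.5 interquartile ranges, the 48 samples of a region in 4 groups, median scaling, sample weights, missing values taken as 0, a permutation test, other sums over rows, the replicate block, and leaving out each rat in turn. Rats 1 to 6 and 7 to 12 as a factor or alone, leaving out assembled transfrags or PFC rats 10 and 11, and FPM were added after the data were seen. Except where stated, the cause was not tested.

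ENSRNOT00000048926 was lower and past the adjusted threshold in all 24 fits that left out 1 rat, at -1.04 to -0.90 (PFC), -0.90 to -0.82 (HIP), and -1.02 to -0.96 (STR), as was its locus sum. It lost the call only with fewer rats, at -0.79 in the PFC for rats 7 to 12 (adjusted p = 0.276), -0.78 in the HIP for rats 1 to 6 (0.712), and -1.07 in the STR for rats 7 to 12 (0.067). Its locus lost it at -0.79 in the PFC (0.18) and -0.78 in the HIP (0.242) in the same rats.

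For ENSRNOT00000059926, removal of outliers gave -1.30, -1.09, and -1.16 in the PFC, HIP, and STR (limma, adjusted p of 0.027, 1.3e-04, and 3.4e-08), and without assembled transfrags the values were -0.63, -1.08, and -1.35. In the HIP the 48 samples gave -1.50 (0.0064) and rats 7 to 12 alone -1.28 (0.029). The permutation test of this transcript alone, not adjusted over transcripts, gave p under 0.05 in each region at the unchanged -1.08, -1.50, and -1.08. The unadjusted limma p of the main fit was under 0.05 there too. The adjusted p over the alternatives ran from 0.027 to 0.756, 1.3e-04 to 0.712, and 3.4e-08 to 0.894 in these regions, and the differences from -1.47 to -0.63, -1.72 to -1.08, and -1.53 to -0.63. Rats 7 to 12 alone gave -0.69 in the PFC and -0.63 in the STR. Leaving out 1 rat gave -1.28 to -0.89, -1.60 to -1.29, and -1.35 to -0.97, past the threshold only in the STR without F344_Nic rat 9 (-1.35, adjusted p = 7.9e-05). The locus sum passed with outliers removed, at -1.13, -0.92, and -0.93, and in the HIP also with 48 samples (-1.42), rats 7 to 12 (-1.09), FPM (-1.36), and FPM without HIV_Nic rat 4 (-1.43). In the PFC it also passed in FPM without HIV_Nic rats 10 and 11 (-1.09). In rats 7 to 12 alone it was -0.51 in the PFC and -0.35 in the STR, and in all alternatives it ran from -1.48 to -0.51, -1.74 to -0.92, and -1.15 to -0.35. Without 1 rat it ran from -1.24 to -0.76, -1.49 to -1.17, and -1.03 to -0.69, and passed only in the STR without F344_Nic rat 9.

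The share of ENSRNOT00000059926 differed by 3.32 points over any class and 1.05 points in FPM in the PFC, by 2.64 points in FPM in the HIP, and by -9.39 and -12.1 points in the STR. Over class = rows alone it differed by -7.21, -2.82, and -13.8 points, and the STR call was kept (adjusted p = 0.0045). Without assembled transfrags its STR minus PFC contrast was -0.73. Its STR minus HIP contrast was then -0.28, the reverse of the 0.42 with all samples.

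The transcripts past the adjusted threshold in either direction numbered 614, 2, and 1 in the order PFC, HIP, and STR. With outliers removed there were 1310, 69, and 59. In the PFC there were 202 for rats 1 to 6 and 0 for rats 7 to 12 (limma, 1206 at an unadjusted p under 0.05). In the HIP there were 4 without a filter, 1 at a mean of at least 1, 4 with 48 samples, 1 with the block, 0 for rats 1 to 6 (1056 unadjusted), and 4 without assembled transfrags. In the STR there were 3, 3, and 4 under the first 3 of these, 2 with the factor, 2 for rats 1 to 6, 0 for rats 7 to 12 (767 unadjusted), and 2 without assembled transfrags. Leaving out 1 rat gave 558 to 677, 2 to 3, and 1 to 2, the latter 2 without F344_Nic rat 9 or 12 or HIV_Nic rat 9 or 12.

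Same-numbered rats did not deviate together (correlations of -0.045 to 0.037, 0 of 12 pairs over 0.1 in each region). With the replicate block ENSRNOT00000048926 kept its differences of -0.96, -0.85, and -0.99 (limma, adjusted p of 0.0043, 0.019, and 0.0040), and the block changed no call of either transcript. Read totals and counting errors are not given here, so low isoforms listed at 0 limit what could be compared.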
